A study of Colocasia esculenta with 4 samples.

Results

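Taro (Colocasia esculenta) is a corm crop of the arum family, and the genes described here are those of its shoot apex that stand alone in the genome. A gene was taken as isolated when no other annotated gene lay within 100 kb of either end. It also had to carry 2 or more exons after overlapping exons were merged, with a total intron length over 500 bp and under 20 kb. By this rule 370 of 28695 annotated genes were members, which is 1.29% of the annotation and 3.38% of the 10950 genes on the 6 linkage-group stretches searched. Members were chosen by position and gene structure, but the stretches were selected on read counts in these same libraries. They were LG03 up to 187 Mb, LG05 from 8 Mb, LG07 up to 112 Mb, and all of LG09, LG11 and LG12. No test can therefore rest on the detected share itself, and a high detected share on them follows from that choice for members and comparison genes alike.

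All 4 libraries came from a single group. The labels give a cultivar, spelled Bin Liang in the protocol and Bing Liang in the cultivar field, and name no treatment, allele, time point or plant age. The tissue was the apical meristem together with leaf primordia and the youngest leaves, and polyadenylated RNA was sequenced with strand kept. Replicates 1 to 4 held 22301051, 25434148, 23365618 and 22252534 counts. The labels do not say that the replicates came from separate plants, so their spread may be technical. Gene identifiers come without names, products or sequences, so tissue markers could not be checked and no sequence is shown.

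Plant genes tend to lie in gene-rich stretches separated by long runs of transposable elements, the mobile repeats that make up much of a large plant genome. Gene-rich stretches are usually found towards chromosome arms, and repeats accumulate around centromeres, where DNA methylation and compact chromatin are common. A gene embedded in repeats therefore sits in surroundings that are often silenced, and how such genes are transcribed is a standing question in plant genomics. A transcribed gene needs its promoter, which lies upstream of its start, and signals downstream that end the transcript. The deposited files hold no chromatin, methylation or repeat data.

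The members had a median of 5 exons, 1579 bp of exon sequence and 2978 bp of intron. Their nearer neighbour lay a median of 186 kb away, and the range was 101.2 to 1387 kb. The farther neighbour lay a median of 430 kb away and at most 3055 kb. The plus strand held 173 members and the minus strand 197. Altogether 784 genes on the stretches met the distance rule, and the structure rule left out 162 with 1 exon, 170 with 500 bp of intron or less and 82 with 20 kb or more. Those left out differed widely in detection, defined as at least 1 CPM (counts scaled to the size of the library) in every library. Of the 1-exon genes 38.9% were detected, of the short-intron genes 53.5% and of the long-intron genes 98.8%.

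Most isolated genes were transcribed in the apex. Of the 370 members, 285 (77.0%; Wilson 95% interval 72.5 to 81.0%, which treats genes as independent draws) were detected in every library. The background over all 10950 genes of the stretches was 66.9%, and over the 5989 genes with the members' exon and intron limits it was 81.3%. At least 1 CPM was reached by 80.3% of members in replicate 1, 78.9% in replicate 2, 80.0% in replicate 3 and 78.1% in replicate 4. Replicate 4 had the lowest share and replicate 1 the highest, and the mean was 79.3% ± 0.999 (SD, n = 4). Another 55 members had some counts without being detected, and 30 (8.11%) had no count in any library. That was below the background of 13.9% over all genes of the stretches and above the 6.58% of genes with the members' exon and intron limits. The limit set by 0 reads is 3 counts by counting error alone, or 0.118 CPM in the deepest library and 0.135 CPM in the shallowest. Members received 3.09% ± 0.0629 of all counts (SD, n = 4).

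The detected share was lower at larger distances to the nearer neighbour up to 150 kb, and higher again among the most isolated genes. Over genes with the members' exon and intron limits, 83.7% of 2986 genes with a neighbour within 5 kb were detected in every library. The share was 80.8% of 1471 genes at 5 to 20 kb, 77.8% of 816 at 20 to 50 kb and 75.1% of 346 at 50 to 100 kb. Among the members it was 72.8% of 147 at 100 to 150 kb, 75.6% of 90 at 150 to 250 kb and 82.7% of 133 beyond 250 kb. The Wilson intervals of the last 3 classes overlapped (65.1 to 79.3%, 65.8 to 83.3% and 75.4 to 88.2%). The share beyond 250 kb was higher than that at 100 to 150 kb in all 4 libraries, at 84.2%, 84.2%, 85.0% and 82.7% against 77.6%, 74.8%, 75.5% and 75.5%. Members at 100 to 150 kb had less exon sequence (median 1297 bp) than those beyond 250 kb (median 1725 bp). Against genes matched on exon number and length, the difference in detection in every library was -0.919 points at 100 to 150 kb, -4.23 at 150 to 250 kb and 1.10 beyond 250 kb. After matching, the first and the last of these classes lay closer together, and the lowest was 150 to 250 kb.

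**Figure D1:**
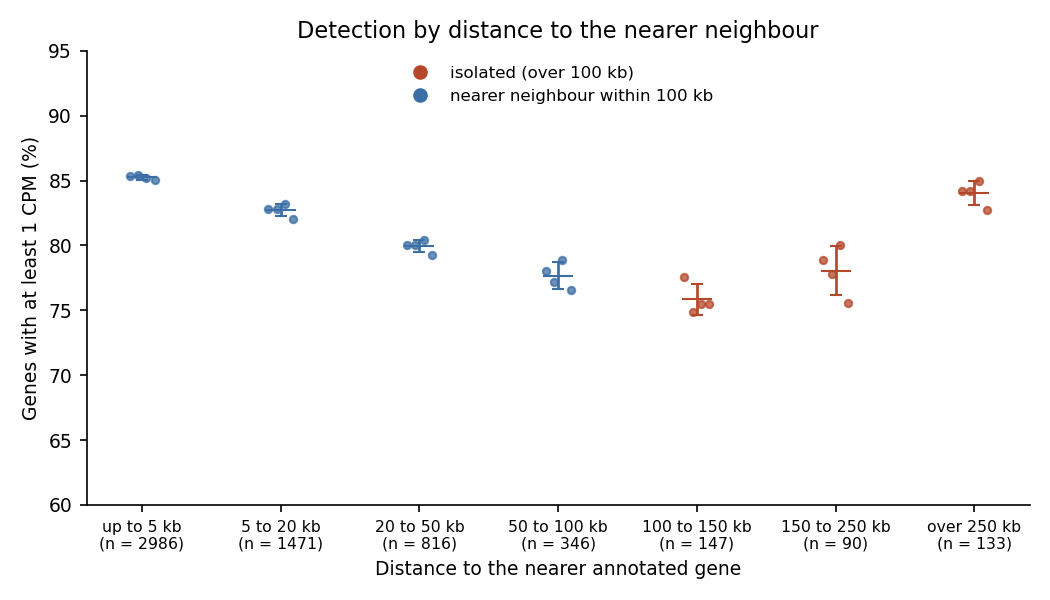
Share of genes with at least 1 CPM (y axis, percent, starting at 60) by distance to the nearer annotated gene, for genes with 2 or more exons and introns over 500 bp and under 20 kb. Points are the 4 libraries, bars the mean and SD, and the lowest mean lies at 100 to 150 kb (75.9%), with 84.0% beyond 250 kb.

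Genes close to the threshold had widely ranging values on both sides of it. The member nearest inside it was EVM0017746 on LG11 (67365410 to 67366711, plus strand, 2 exons), whose nearer neighbour lay 101.2 kb away. Its RPKM (reads per kilobase of exon, scaled to the size of the library) was 42.5, 36.1, 62.5 and 62.6 in replicates 1 to 4. The gene nearest outside, EVM0010990 on LG05 (20913116 to 20918688, plus strand, 4 exons), had 18.9, 11.9, 22.0 and 20.3 RPKM. The 5 members nearest inside ranged from 0.622 to 158 RPKM in the mean, and the 5 genes nearest outside from 1.41 to 108 RPKM. All 5 outside were detected in every library, and not all of the 5 inside. So few genes of unlike structure cannot show whether the values change at the threshold.

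Each member was then set against genes with the same exon number, a total exon length within 10% and both neighbours within 20 kb. Such matches existed for 368 members, with a median of 29.5 matched genes each, drawn from 3020 genes with near neighbours. Of these 368 members 76.9% were detected in every library, against 77.9% of their matched genes, a difference of -1.01 percentage points. Per library the difference was -0.57, -0.931, -0.844 and -2.04 points in replicates 1 to 4. All 4 values were below 0, and replicate 4 lay farthest from it. The mean was -1.10 ± 0.647 (SD, n = 4), and the exact sign-flip permutation test over the 4 libraries gave a two-sided p of 0.13, which is the smallest that 4 libraries allow. With isolation taken at 200 kb the difference was 1.09 points, and without members that share exon lengths with another gene it was -0.201 points. The members' own interval of 72.5 to 81.0%, which treats genes as independent draws, contains the 77.9% of these matched genes. Matched on intron length as well, as described below, the matched genes reached 81.1%, outside the interval. The interval therefore does not decide whether the shares differ. No comparison of 4 libraries by this test can pass 0.05. The libraries score the same genes, so a shared sign covers only their spread and draws no conclusion about isolation.

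The size of the difference depended on introns. Members must carry more than 500 bp of intron, while the comparison genes need not. With comparison genes held to the same intron limits, 364 members had matches and the difference was -4.15 points, or -3.02, -3.70, -3.31 and -5.06 points in replicates 1 to 4. With total intron length also matched within 2-fold, which was chosen after seeing the data, the difference was -4.97 points over 344 members. The sign within intron classes turned with this choice. Matched on exons alone, 90 members with 8000 bp of intron or more were higher, by 3.52, 4.84, 2.98 and 3.99 points in replicates 1 to 4. Those with 2000 bp or more but under 8000 bp were higher by 2.63, 0.873, 0.289 and 0.936 points, and those with under 2000 bp were lower, by -6.35, -6.42, -4.42 and -8.85 points. With introns matched as well, the order was different. Among members with 8000 bp of intron or more, 87.3% of 79 were detected against 97.4% of matched genes. The differences per library were -10.2, -10.2, -11.0 and -10.7 points. Members with under 2000 bp of intron were detected in 60.9% of 133 cases against 65.4%, and the 4 libraries did not share a sign (-1.72, -2.69, 0.055 and -3.94 points). Those with 2000 bp or more but under 8000 bp were detected in 84.8% of 132 cases against 87.3%.

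More exons went with a higher detected share, in members and in their matched genes. Of 107 members with 2 or 3 exons 66.4% were detected, of 229 with 4 to 10 exons 80.3%, and of 34 with more than 10 exons 88.2%. Against matched genes of any intron length the smallest models were higher, by 5.47, 2.50, 6.47 and 1.97 points in replicates 1 to 4. Models with 4 to 10 exons were lower, by -3.01, -2.20, -3.79 and -3.23 points. The 32 members with more than 10 exons and a match were lower too, by -3.30, -3.30, -4.21 and -6.94 points. CPM takes no account of gene length, and the median exon length rose from 1164 bp through 1707 bp to 2759 bp over these classes.

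**Figure D2:**
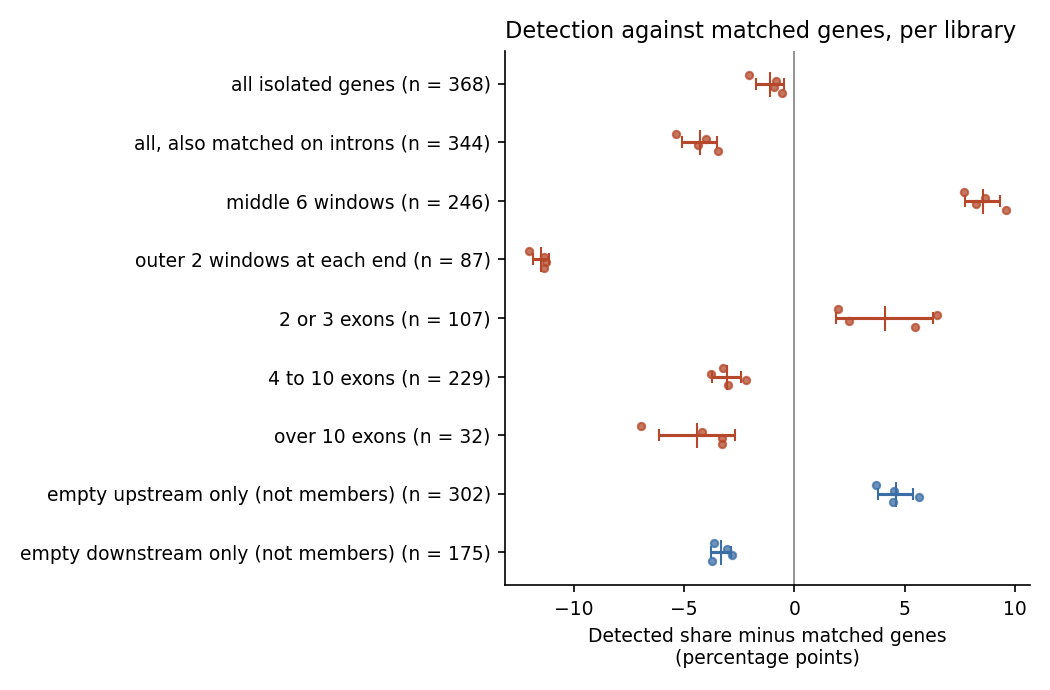
Difference in the share of genes with at least 1 CPM between each set and its matched genes with both neighbours within 20 kb (x axis, percentage points). Points are the 4 libraries, ticks and bars the mean and SD; the sets in the middle and outer windows lie on opposite sides of 0.

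Where a member lay along its linkage group went with how often it was detected. Each stretch was cut into 10 equal windows from the first gene to the last, and the split into outer and middle windows was chosen after the values were seen. The middle 6 windows held 283 members (76.5% of them) but only 29.4% of all genes, and the 2 outermost windows together held 20 members. In the middle 227 of 283 members (80.2%; Wilson 95% interval 75.2 to 84.4%) were detected in every library. In the outer 2 windows at each end it was 58 of 87 (66.7%; 56.2 to 75.7%). Genes with both neighbours within 20 kb went the other way, with 69.5% of 413 detected in the middle and 76.0% of 2607 in the outer windows.

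The gain of the middle over the outer windows was 13.3, 11.5, 12.9 and 11.95 points for members in replicates 1 to 4. For genes with near neighbours it was -6.85, -6.63, -6.86 and -7.30 points. The groups of 4 values did not overlap, and the difference between them was 19.3 ± 0.868 points (SD, n = 4). No test is given for it, since the split followed from the values. Of the 413 genes with near neighbours in the middle, 230 lay on LG07, whose used stretch ends inside the linkage group. Without LG07 the difference was 26.5 points, and without LG05 and LG07 it was 27.8 points in detection in every library, against 20.04 with all 6.

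Matched on exon number and length within the same windows, the 87 outer members were detected in 66.7% of cases against 79.6%. The differences were -11.4, -11.3, -11.4 and -12.04 points in replicates 1 to 4, with an SD of 0.355 (n = 4). The 246 middle members with such a match were detected in 80.1% of cases against 72.5%, or 9.60, 8.26, 8.64 and 7.72 points higher. That higher value in the middle rested on the comparison genes. Against matches from all windows it was 2.53, 2.00, 2.12 and 0.739 points, and with introns matched as well the 4 libraries did not share a sign (0.101, -1.14, -0.609 and -2.15 points). The lower value in the outer windows stayed between -14.5 and -15.5 points per library with introns matched. Outer members had a median nearer distance of 135 kb and 2300 bp of intron, against 208 kb and 3116 bp for middle members. The part of the distance in the result was not tested.

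**Figure D3:**
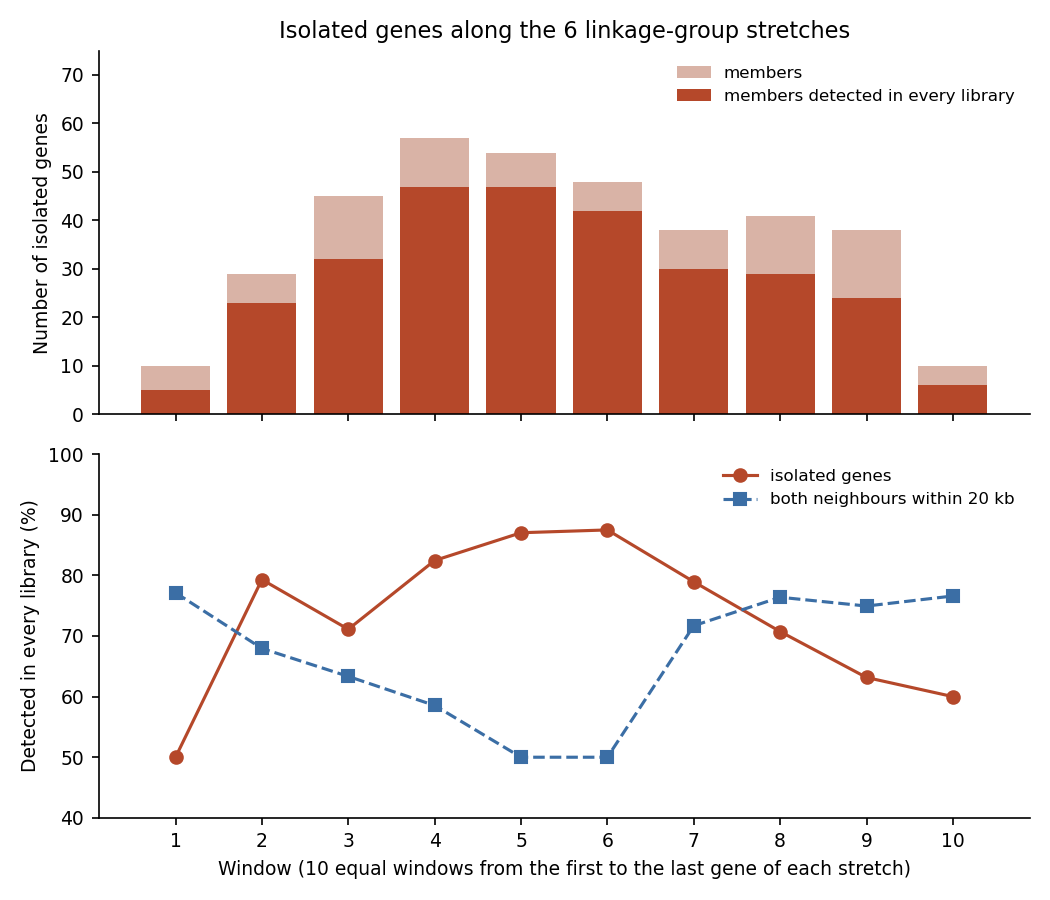
Above, isolated genes per window of the 6 stretches pooled (y axis, number), with those detected in every library in the darker colour. Below, the share detected in every library (y axis, percent, starting at 40) for isolated genes and for genes with both neighbours within 20 kb; windows 5 and 6 show 87.0% and 87.5% for isolated genes, against 17 of 34 and 11 of 22 of the others.

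The 6 linkage groups carried unequal numbers of members. LG05 had 102, LG03 had 87, LG09 had 64, LG11 had 55, LG07 had 33 and LG12 had 29. Per 10 Mb of stretch this was 6.11 on LG05, 4.66 on LG03, 4.13 on LG11, 4.11 on LG09, 2.94 on LG07 and 2.85 on LG12. The most isolated by median were those of LG09, with 250 kb to the nearer gene, and the least those of LG07, with 145 kb. Detected in every library were 82.8% of members on LG12, 79.7% on LG09, 79.3% on LG03, 76.5% on LG05, 75.8% on LG07 and 69.1% on LG11. The Wilson intervals of all 6 overlapped, from 65.5 to 92.4% on LG12 to 56.0 to 79.7% on LG11.

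Matched to genes of the same linkage group, members were less often detected in every library on 3 of 6 groups. The differences were -5.80 points on LG05, -3.88 on LG11 and -2.03 on LG03, and 0.479 on LG09, 3.61 on LG12 and 11.7 on LG07. Counted per library at 1 CPM, LG05 and LG12 did not keep a sign. On LG07 the excess was 13.8, 14.5, 11.97 and 8.22 points in replicates 1 to 4, over 28 members. On LG09 the members were lower in each library at 1 CPM (-3.59, -5.80, -4.42 and -2.25 points), although they were slightly higher when every library was asked for. Middle members were more often detected than outer ones on LG03 (83.1% of 65 against 68.2% of 22), LG05 (81.2% of 69 against 66.7% of 33), LG09 (81.5% of 54 against 70.0% of 10) and LG11 (73.8% of 42 against 53.8% of 13). LG07 had 18 of 24 in the middle and 7 of 9 outside it, and LG12 had no member in its outer windows.

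Genes that were isolated at only one end showed a difference between the ends. Among genes with the members' exon and intron limits, 305 had an empty 100 kb upstream and a neighbour within 20 kb downstream, and 175 had the reverse. With the upstream side empty 85.6% were detected in every library, with the downstream side empty 72.0%, and with both sides empty, as for members, 77.0%. Against matched genes the genes with an empty upstream side were 4.48, 5.65, 4.52 and 3.71 points higher in replicates 1 to 4. Those with an empty downstream side were lower, by -3.75, -2.83, -3.04 and -3.64 points. The 2 sets of values did not overlap and differed by 7.91 ± 0.539 points (SD, n = 4; exact sign-flip permutation test, two-sided p = 0.13, the smallest possible). Genes with an empty upstream side had more exon sequence (median 1633 bp against 1304 bp) and more intron (median 3715 bp against 3009 bp). Each set was matched on exon number and length to its own genes, and not on introns. Matched directly to each other, an alternative added after seeing the data, the sets differed by 16.1 points in detection in every library. The part of gene structure in the difference was not tested. The sign-flip test covers only the spread between libraries that score the same genes, and draws no conclusion about the empty side.

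The excess of genes facing an empty upstream side was counted from gene positions and strands, although the stretches themselves were selected on read counts. With genes of any structure there were 588 with only the upstream side empty and 413 with only the downstream side empty on the stretches. On the rest of the linkage groups, where few reads were counted, the numbers were 906 and 586.

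Transcript levels of isolated genes were close to those of matched genes as a whole. The median RPKM of the 285 detected members was 30.5, 31.7, 31.2 and 32.6 in replicates 1 to 4, a mean of 31.5 ± 0.886 (SD, n = 4). For detected genes with both neighbours within 20 kb it was 33.6, 32.5, 32.4 and 32.2. The ranges of the 2 groups overlapped. On the log2(RPKM + 1) scale, a member differed from the median of its matched genes by a median of -0.0040, 0, -0.058 and 0.010 in replicates 1 to 4, a mean of -0.013 ± 0.031 (SD, n = 4; exact sign-flip permutation test, two-sided p = 0.75). By mean RPKM 178 members were above the median of their matched genes and 189 below. More than 2-fold apart on that scale were 115 above and 127 below.

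The level depended on the comparison genes too. With comparison genes held to the members' intron limits, the median difference was -0.31, -0.28, -0.24 and -0.20 on the log2(RPKM + 1) scale in replicates 1 to 4, all below 0. The outer members differed by -1.17 ± 0.17 from matched genes of the same windows, and the middle members by 0.56 ± 0.053 (SD, n = 4). With introns also matched, the outer value was -1.33 ± 0.078 and the middle value -0.025 ± 0.021. Among detected genes alone, the outer members differed by -0.44 ± 0.082 with matches from the same windows and by -0.67 ± 0.056 with introns matched. For the middle members the sign turned, from 0.23 ± 0.16 with the same windows to -0.17 ± 0.037 with introns matched. Detection and level did not always go together. Members with 8000 bp of intron or more, lower in detection when introns were matched, differed in level by a median of 0.15 ± 0.048. By mean RPKM, 39 of these 79 members were above the median of their matched genes and 40 below. They had a median of 5 matched genes each, so their level was not shown to be higher. Members with 8000 bp of intron or more were the highest, with a median RPKM of 46.8 ± 2.03 over the detected ones, against 27.2 ± 1.59 from 2000 bp and 21.0 ± 0.477 under 2000 bp (SD, n = 4).

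**Figure D4:**
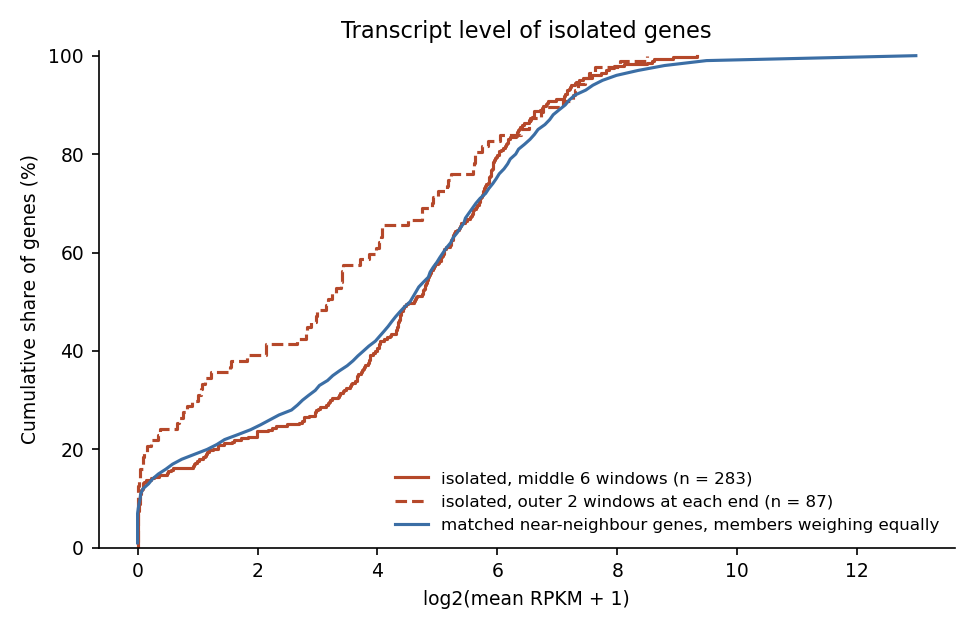
Cumulative share of genes (y axis, percent) by transcript level (x axis, log2 of mean RPKM + 1) for isolated genes in the middle and outer windows and for matched genes, each member's matches carrying equal weight. The median of the 87 outer members was 8.04 RPKM, against 23.5 RPKM in the middle.

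The upper range of the apex transcriptome held isolated genes too. Among detected members 29 (10.2%) lay above 142 RPKM, the 90th percentile of the detected genes of the stretches, against a background of 10% by construction. The 2 shares were close, and the background includes the members themselves. Above the 99th percentile (633 RPKM) there was 1 of the 285 detected members, against a background of 1% by construction. The 10 most counted members took 24.1% of the members' counts. A mean of at least 100 RPKM was reached by 43 members. No background share was computed at that level, so the count is a description and not a comparison. Below that level, the upper quartile of mean RPKM was 64.2 in detected members and 67.9 in detected genes of the stretches.

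The most abundant was EVM0013159 on LG09 (65995650 to 66000035, plus strand), with 7 exons and 1851 bp of exon sequence. It had 593, 634, 674 and 669 RPKM in replicates 1 to 4, a mean of 643 ± 37.4 (SD, n = 4), with replicate 1 lowest. Its nearest annotated genes lay 1199 kb to its left and 523 kb to its right, and the median of its 32 matched genes was 37.1 RPKM. EVM0024292 on LG05 (79404327 to 79414826, minus strand, 7 exons) followed with 503, 486, 500 and 458 RPKM, and its values did not overlap those of EVM0013159. Most of its 9367 bp of intron was a single intron of 8057 bp.

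The highest member of each other linkage group also lay mostly in mid-stretch. EVM0016583 on LG07 (62264599 to 62270993, minus strand) had 406, 405, 395 and 354 RPKM. EVM0009495 on LG12 (50095629 to 50102260, minus strand) had 367, 473, 350 and 327 RPKM. These 2 ranges overlapped, so their order was not resolved. EVM0005486 on LG03 (32653329 to 32658198, plus strand) had 300, 262, 262 and 231 RPKM and lay in window 2. EVM0013792 on LG11 (66531687 to 66536154, minus strand) had 218, 233, 225 and 307 RPKM, with replicate 4 above the other 3, and its range overlapped that of EVM0005486. Apart from EVM0005486, each of these 6 leading genes lay in window 5 or 6 of its stretch. Windows 5 and 6 held 14.6% and 13.0% of all members, and the middle 6 windows 76.5%. The genes were picked for their level, and their position was not tested.

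The 2 genes with the most distant nearer neighbour were both on LG09 and both detected. EVM0025638 (75589609 to 75599304, plus strand, 7 exons) had no annotated gene for 1387 kb on its nearer side and 1536 kb on the other. Its RPKM was 33.7, 49.3, 31.0 and 50.9, with replicates 2 and 4 above 1 and 3. EVM0009310 (56643344 to 56644985, minus strand, 4 exons) had its nearer neighbour 1156 kb away and showed 64.9, 65.6, 63.3 and 92.7 RPKM, with replicate 4 highest. Counting both sides together, EVM0003652 on LG07 (36997751 to 37002308, plus strand, 6 exons) had more empty sequence, with 3055 kb to its left and 907 kb to its right. It had 3.75, 3.88, 3.21 and 3.21 RPKM, against a median of 32.3 RPKM in its 15 matched genes, and was named after its values were seen. Over the 285 detected members, Spearman's correlation of mean RPKM with the nearer distance was 0.023, with exon number 0.15 and with intron length 0.22. These are correlations across genes of the same libraries and not across replicates.

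**Figure D5:**
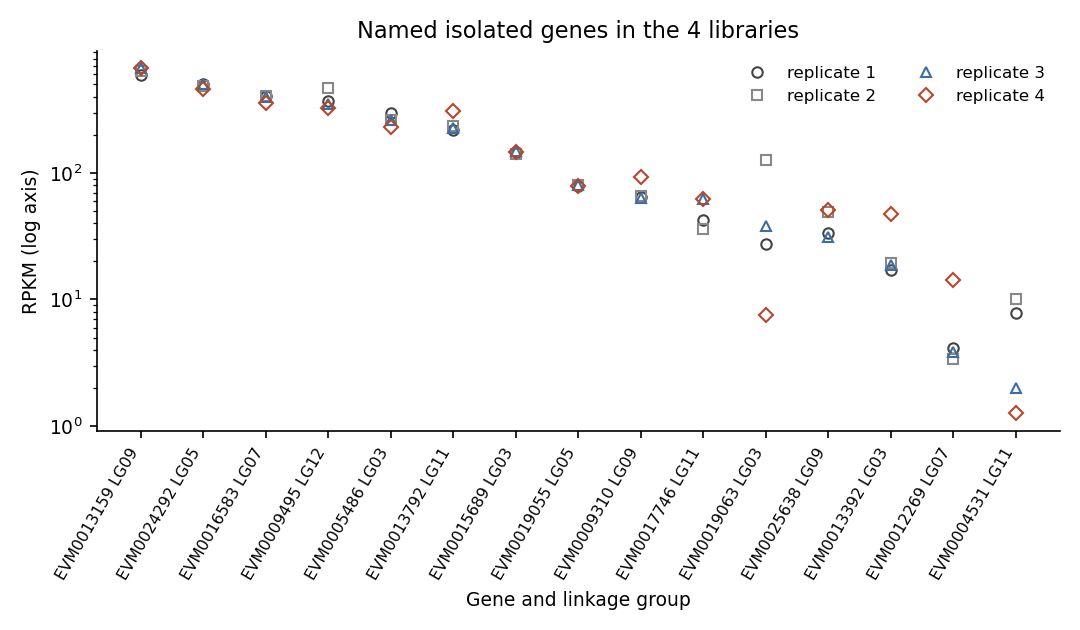
RPKM (y axis, log scale) of isolated genes named in the text in each of the 4 libraries, in order of mean level. EVM0003652, EVM0026072 and the genes without a count are not drawn. EVM0013392 and EVM0012269 show replicate 4 above the other libraries. EVM0019063 has replicate 2 highest and replicate 4 lowest, and EVM0004531 has replicates 3 and 4 both low. EVM0019055 and EVM0015689 have nearly coinciding points.

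As a whole, isolated genes varied between libraries about as much as matched genes. The coefficient of variation of RPKM over the 4 libraries had a median of 14.5% in 281 detected members with detected matches, against 13.8% for the matched genes. The median difference was 0.696 percentage points. Subsets lay farther apart. Outer members had a median of 19.6% against 13.0% for matched genes of the same windows, and members with under 2000 bp of intron 19.6% against 13.2%. Members with 8000 bp of intron or more had 10.5% against 13.8%. The steadiest members with at least 10 RPKM were EVM0019055 on LG05 (78120173 to 78137255, minus strand), with 79.2, 79.8, 80.5 and 78.2 RPKM, and EVM0015689 on LG03 (99461766 to 99467332, plus strand), with 147, 142, 148 and 147 RPKM. The most variable was EVM0019063 on LG03 (66882301 to 66883123, plus strand, 3 exons within 306 bp), with 27.4, 126, 37.8 and 7.49 RPKM. EVM0013392 on LG03 (34124104 to 34143364, minus strand, 11 exons) had 17.2, 19.3, 18.6 and 47.8 RPKM.

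More members stood apart in replicate 4 than in any other library, but not a larger share than among all detected genes. In replicate 4, 2 of 285 detected members lay over 2-fold above each other library. The background was 1.79% of the 9811 detected genes of the whole annotation. Over 2-fold below lay 8 of 285, against a background of 3.28%. Together these members were 3.51% of the detected ones. Replicate 1 had 0 such members, and replicates 2 and 3 had 1 each, for which no background share was computed. Farthest above in replicate 4 was EVM0012269 on LG07 (6045845 to 6049500, minus strand), with 4.10, 3.37, 3.85 and 14.4 RPKM, and next was EVM0013392. Farthest below was EVM0019063, and next EVM0004531 on LG11 (16811190 to 16813837, plus strand), with 7.86, 10.2, 2.00 and 1.26 RPKM, in which replicate 3 was low as well.

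The 30 members without a count leaned towards small gene models but included long ones. They had a median of 3.5 exons and 1083 bp of exon sequence, and 15 had 2 or 3 exons. The longest were EVM0019622 on LG03 (50030655 to 50038409, plus strand, 10 exons, 4833 bp) and EVM0010817 on LG03 (159026346 to 159034574, minus strand, 13 exons, 2864 bp), both listed at 0 counts in replicates 1 to 4. The 10 genes matched to EVM0010817 had a median of 26.5 RPKM.

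A small share of isolated genes had a possible copy by exact exon lengths, a criterion that leaves out less exact copies. The authors counted a multi-mapping read at all of its places, so genes that share sequence may share counts. The same ordered exon lengths as another gene were found in 6 members (1.62%), against 0.985% of the 5989 genes with the members' exon and intron limits. Of the 6 members 0 were detected. The detected share of the 59 genes behind the 0.985% was not computed, so this is not shown to be particular to isolated genes. Some of the 6 had another isolated gene as partner, so they need not be separate cases. EVM0026072, with 6 exons, averaged 1.23 RPKM and its partner on LG03 1.18 RPKM, from 111 and 106 counts in all. It is named because it was the most counted of the 6, chosen after the values were seen. Exact exon lengths can miss other pairs. On LG07, 2 detected members with 2 exons each had 687 and 716 bp of exon sequence and nearly equal counts. The counts were 205, 230, 190 and 152, and 204, 231, 191 and 152, in replicates 1 to 4. That pair was picked after the values were seen, and whether it shares reads was not tested. Whether any of these genes are copies was not examined by sequence.

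In 111 cases 2 members were consecutive genes of a linkage group, and such a pair shares the empty stretch between them by definition. Both were detected in 77 of these pairs (69.4%), 1 of them in 24 and neither in 10. The square of the detected share of all members would be 59.3%, but that share is not the one of the members in these pairs. Over all 3490 consecutive pairs of genes with the members' exon and intron limits, both were detected in 70.9%, and the square of that set's detected share was 66.1%. The same limit applies there, so neither gap measures how far neighbours were detected together. Spearman's correlation of log2(mean RPKM + 1) over the 111 pairs was 0.21, given as a description, since pairs can share a gene and a position.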

How the data were processed

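The authors deposited whole read counts per gene for each library, made with featureCounts 2.0.0 on exons, reverse strand, with reads aligning to more than 1 place counted at each, per the file headers. The submitters' processing notes name Trimmomatic 0.36 and HISAT2 2.0.5. The headers name a Lachesis assembly of taro without a build name; coordinates are theirs, counted from 1. The authors also deposited RPKM values, and 28695 genes equalled the counts divided by exon kilobases and library total within 1e-06.

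Distances ran to the nearest end of any annotated gene, overlaps included. Each member was compared with all its matched genes, members weighing equally. With 1 group, only the 4 libraries give replicate spread, through an exact sign-flip permutation test. That spread leaves out the sampling of genes. The matching steps were tested on simulated data with planted differences. Scaling alternatives used edgeR 4.0.16 (TMM) and DESeq2 1.42.0 size factors in R 4.3.3; the rest used Python 3.11.15. At most 2 identifiers were named per criterion: highest level, highest per linkage group, widest distance, lowest and highest variation, replicate 4 apart, longest without counts, nearest the threshold. Members and criteria were chosen with earlier results of these data known.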

Additional observations from a re-analysis of the deposited data

Results flagged for a closer look

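In 5 of 40 sets of 4 values, a single library stood apart, with a gap over the range above Dixon's 95% critical value. Chance gives about 1 in 20, and some of the genes were named for their variation or for replicate 4. The gap over the range was 0.934 for EVM0012269, 0.932 for EVM0013392, 0.923 for EVM0009310 and 0.835 for EVM0013792, with replicate 4 highest in each. It was 1.0 for the share of LG07 members with at least 1 CPM, which was 78.6% in replicate 4 and 82.1% in each other library, a step of 1 gene among 28. Over all 285 detected members 29 (10.2%) had such a library, replicate 4 in 25 of them, against 12.7% of the other detected genes of the stretches.

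Several pairs of sets lay on opposite sides of their matched genes in all 4 libraries. These differences are means over libraries in percentage points of genes with at least 1 CPM. Models with 2 or 3 exons stood 7.16 above those with 4 to 10 exons and 8.54 above those with more than 10, each relative to matched genes. This was not tested. Genes with only the upstream side empty stood 7.91 above those with only the downstream side empty. Members of the middle windows stood 20.1 above those of the outer windows, each against matched genes of the same windows, and the gain of middle over outer windows was 19.3 larger for members than for genes with near neighbours. LG03 against LG07 gave -13.4, LG07 against LG09 gave 16.1 and LG07 against LG11 gave 14.6, with 28 matched members on LG07. These were not tested.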

How the results depend on the processing

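Of 112 alternatives over 7 results, 64 moved the value by less than the spread between libraries, or a count by less than 1.5 times. For the replicate spread, the yardstick was instead a standard error from leaving out each library in turn (0.354 points). The number of members was 716 at 50 kb, 163 at 200 kb and 622 with any intron length. The detected share against matched genes (-1.01 points) turned to 1.09 at 200 kb and to 1.93 without matching. It was -2.34 at 50 kb, -0.201 without genes sharing exon lengths, -2.01 with neighbours within 50 kb, -1.71 with length within 5%, -4.15 with the same intron limits, -4.97 with introns matched, -1.70 without LG07, -1.89 with 10 counts, -1.91 with 1 count and -3.19 with 1 RPKM in every library. The level (-0.013) was -0.0751 at 50 kb, 0.20 at 200 kb, -0.0627 with neighbours within 10 kb, -0.0776 with length within 5%, 0.063 within 20%, -0.26 with the same intron limits, -0.29 with introns matched, -0.0514 within the same linkage group and -0.10 among detected genes. The replicate spread (0.696) turned to -0.432 with neighbours within 50 kb and was 0.119 at 200 kb, 0.298 and 0.231 with length within 5% and 20%, 1.33 with the same intron limits and 0.0266 without matching. The linkage groups with a lower share (3) numbered 5 with 1 CPM in at least 2 libraries and 5 with 10 counts. The upstream against downstream difference (7.31) was 5.93 at 50 kb, 8.68, 6.67 and 8.88 with 10 counts, 1 count and 1 RPKM, 8.54 with the same intron limits and 16.1 when the sets were matched to each other. The position difference (20.04) was 28.5 and 31.4 with 1 and 3 outer windows, 26.5 without LG07, 27.8 without LG05 and LG07, 18.9 with the same intron limits, 16.1 and 23.3 at 50 and 200 kb, and 14.7 and 18.6 with 1 and 10 counts. With a library left out these ranged from -1.44 to -1.02, -0.0208 to 0.00216, 0.415 to 0.881, 3 to 4, 7.07 to 8.11 and 19.9 to 20.6. The cause of these moves was not tested. No paired analysis was possible because all libraries belong to a single group. The position result and its alternatives, the matching on introns, the removal of overlapping genes or of LG07, and the direct matching of upstream to downstream sets were alternatives added after seeing the data. The position difference was above 0 in 13 of 13 alternatives and the upstream against downstream difference in 11 of 11. Effects of depth on these shares were not tested at equal depth.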
